A study of Mus musculus with 45 samples.

Results

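The step from 24 h to 30 h after partial hepatectomy was followed in wild-type (WT) mouse liver, using every WT library of those times: 3 at 24 h (replicates 1 to 3) and 2 at 30 h (replicates 2 and 3), 5 of the 45 libraries of the series. The series profiled liver RNA of WT mice and of Uhrf1hepKO mice (KO, a hepatocyte knockout of Uhrf1 by its name) before surgery (baseline) and 24, 30, 40, 48 or 96 h later, with final samples after 7 days and after 4 weeks. All mice were C57Bl/6, 8 to 12 weeks old and on a normal diet, and they were operated on in the morning, so livers of the 24 h and 30 h groups also differ in the hour of day at which they were taken. Both groups carried the WT genotype and no agent beyond the surgery. For the KO libraries used as a comparison (3 at 24 h and 3 at 30 h), the Cre driver is not given in the sources used here. Whether replicates came from different animals is not stated in the labels. The p-values therefore reflect the sample-to-sample spread within groups alone, and that spread may be technical.

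Partial hepatectomy removes most of the liver, and the remaining lobes regrow mainly through division of hepatocytes, which are quiescent in the adult. In mice these cells pass through a long G1 phase before DNA synthesis, and mitosis follows later. Before S phase, replication origins are licensed by loading of the MCM helicase onto DNA. E2F transcription factors, held back by the retinoblastoma family until cyclin-dependent kinases act, drive genes for licensing, replication forks and nucleotide supply. Mitotic genes are transcribed later, through promoters with CHR and CCAAT elements. The liver also has a circadian clock, in which the activators BMAL1 (gene Arntl), CLOCK and NPAS2 drive PER and CRY repressors and the output factors DBP, TEF and HLF, so hepatocyte transcripts also change with the hour of day.

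Total counts were 17.17 to 18.92 M (mega-counts) per library at 24 h and 12.85 to 16.42 M at 30 h. The series ran from 12.85 to 23.13 M, so 30 h replicate 2, at 12.85 M, was its shallowest library. Albumin, the defining hepatocyte product, took 4.47% to 5.22% of the counts at 24 h and 4.47% to 5.79% at 30 h. Levels below are CPM, counts scaled to library size with TMM factors, listed in replicate order. Uhrf1, the targeted gene of the KO livers, was at 1.09, 0.674 and 1.08 CPM in the KO libraries at 24 h and at 8.87, 14.6 and 15.2 CPM at 30 h, against 4.74, 2.81 and 1.52 and 36.5 and 28.0 CPM in WT. The KO libraries were thus below every WT library of the same time. Which part of the gene is deleted is not given in the sources used here, so these counts may include reads outside it.

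Of 14090 genes tested, 307 were higher and 129 were lower at 30 h than at 24 h in WT liver (edgeR's quasi-likelihood test, Benjamini-Hochberg adjusted p under 0.05), which is 3.09% of the genes called, 2.18% upwards and 0.916% downwards. The rises were the larger changes: 238 of the 307 genes rose at least 2-fold and 50 of the 129 fell at least 2-fold, with median log2 fold changes of 1.75 and −0.88 against 0.01 over all genes. Libraries of the 2 times did not overlap for 305 of the 307 risen and for all 129 fallen genes. Over all genes tested, 17% were higher and 16.4% were lower at 30 h without overlap. In the plot of calls by list, members of each of the 7 cell cycle lists rose and none fell. Members moved in both directions in the clock, clock output, urea cycle and amino acid, and fatty acid and triglyceride synthesis lists, and each of the remaining 25 lists had at most 1 call. Of the 307 rises, 111 were in the 7 cell cycle lists, where 207 genes were tested, so 53.6% of these genes rose against 2.18% of all genes. The lists were chosen with earlier results of these data known, so these shares are a description and not a test.

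**Figure D1:**
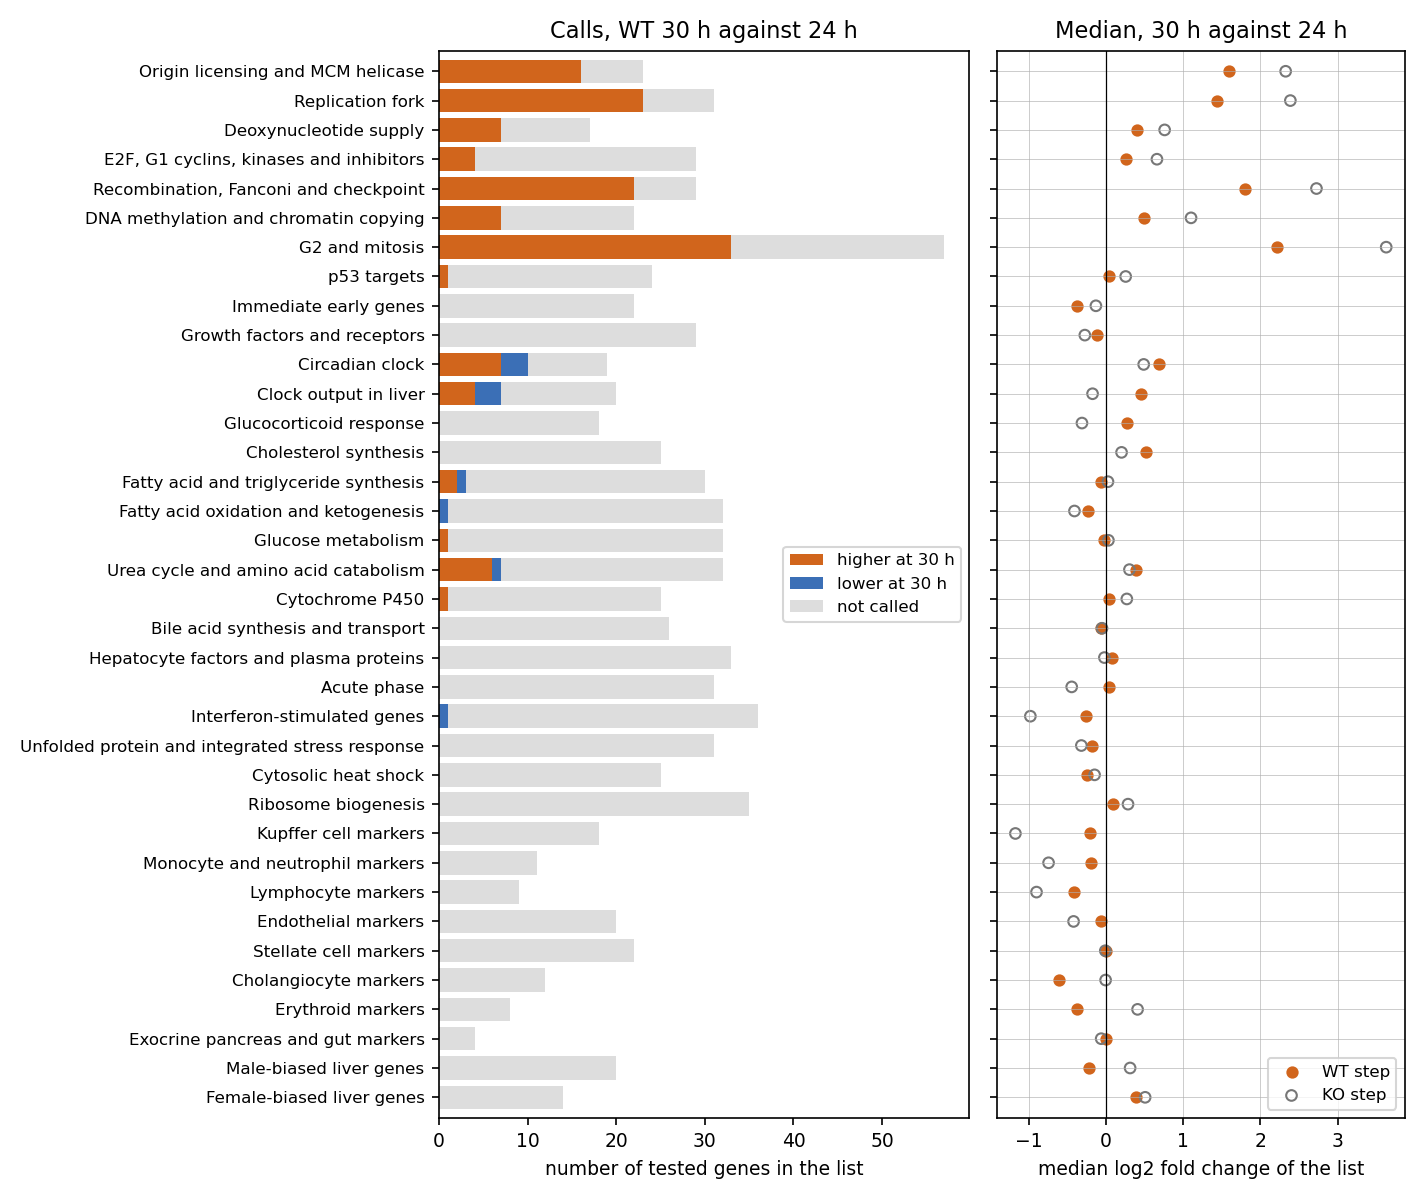
Left, the number of tested genes of each of the 36 gene lists that were called higher (orange), called lower (blue) or not called (grey) in WT liver at 30 h against 24 h. Right, the median log2 fold change of each list in the WT step (filled) and in the KO step (open), where the 7 cell cycle lists at the top have medians of 0.26 to 2.22 in WT and most other lists lie near 0.

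The 2 libraries at 30 h were not equal. Replicate 2 had the higher level in 215 of the 307 risen genes, with a median difference to replicate 3 of 0.20 on the log2 scale, against 0.01 over all genes. It was also apart from replicate 3 in markers of some other cell types. Relative to the 24 h mean, the mean log2 CPM was −1.07 in replicate 2 and 0.37 in replicate 3 for Kupffer cell markers. It was −0.97 and 0.06 for erythroid and −0.46 and 0.16 for lymphocyte markers. Replicate 2 was the higher for 1 of 18, 2 of 8 and 1 of 9 of these genes. Endothelial (−0.11 and −0.09) and stellate cell markers (−0.25 and −0.25) were alike in both. Some pathway lists also differed, such as glucocorticoid response (0.80 and −0.44), immediate early genes (−0.05 and −0.83) and heat shock (0.02 and −0.48). The part of these lists in the result was not tested. The number of calls depended on single libraries: 196 genes were called without 30 h replicate 3, 216 without 30 h replicate 2 and 251 without 24 h replicate 3, against 436 with all. With 1 library left at 30 h, the test assumes that it varies like the other groups. For the cell cycle lists the 111 rises became 62 without 30 h replicate 2, where 1.16% of all genes rose, and 83 to 100 without each of the others. No member of these lists fell in any of those refits, and 188 of the 207 estimates were above 0 with all libraries. Fewer cells of a type and less RNA per cell cannot be told apart in bulk tissue.

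Genes of origin licensing and the MCM helicase rose together. Of 23 members tested, 16 rose, none fell and 7 were not called, with a median log2 fold change of 1.59. Cdc6, which loads the helicase onto origins, was at 1.54, 0.794 and 0.597 CPM at 24 h and at 12.1 and 9.87 CPM at 30 h (log2 fold change 3.46 ± 0.71 SE, adjusted p = 0.0026). Both libraries at 30 h lay more than 6-fold above the highest library at 24 h. In the GENCODE vM21 annotation (GRCm38) Cdc6 spans chr11:98907801-98923940, Mcm5 chr8:75109569-75128439 and Mcm6 chr1:128331590-128359664. Mcm5, a subunit of the MCM2-7 ring, rose from 17.1, 9.28 and 8.84 to 75.3 and 54.9 CPM (log2 fold change 2.46 ± 0.46 SE, adjusted p = 0.0011), and Mcm6 from 22.5, 10.8 and 11.7 to 74.9 and 57.8 CPM (log2 fold change 2.14 ± 0.44 SE, adjusted p = 0.0032). The other 4 ring subunits also rose: Mcm2 by 2.03 ± 0.39, Mcm3 by 2.06 ± 0.38, Mcm4 by 1.59 ± 0.39 and Mcm7 by 1.39 ± 0.22 on the log2 scale. All 6 subunits were higher in both 30 h libraries than in any 24 h library, and 24 h replicate 1 was the highest of its group for each of them. Cdc45, which joins the ring to form the active helicase, rose from 3.14, 2.199 and 1.84 to 14.0 and 9.63 CPM (log2 fold change 2.29 ± 0.42 SE, adjusted p = 0.00071). On a scale per transcript length, FPKM, the authors' values for Mcm5 averaged 2.96 ± 1.19 (SD, n = 3) at 24 h and 16.3 ± 3.0 (n = 2) at 30 h, and those for Cdc6 0.466 ± 0.446 and 3.30 ± 0.51. The call of Mcm6 was lost without 30 h replicate 2 (adjusted p = 0.056), and that of Mcm4 without 24 h replicate 2, 24 h replicate 3 or 30 h replicate 2 (0.062, 0.093 and 0.15). The number of risen members fell to 8 without 30 h replicate 2.

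The promoter of Mcm6 is shown because its window holds the most E2F matches among the MCM genes with a window, and that of Uhrf1 because the gene rose and is the target of the KO. Each window runs from 250 bases before to 50 bases after a RefSeq start site (GRCm38.p6), 5′ to 3′ on the gene's strand. Mcm6 is at chr1:128359656-128359955 on the minus strand, and the Uhrf1 window, 1 of 2 for that gene, at chr17:56304063-56304362 on the plus strand. Capitals mark exact matches, on either strand, to TTTCCCGC, TTTCGCGC, TTTGCCGC or TTTGGCGC, the E2F letters searched.
Mcm6: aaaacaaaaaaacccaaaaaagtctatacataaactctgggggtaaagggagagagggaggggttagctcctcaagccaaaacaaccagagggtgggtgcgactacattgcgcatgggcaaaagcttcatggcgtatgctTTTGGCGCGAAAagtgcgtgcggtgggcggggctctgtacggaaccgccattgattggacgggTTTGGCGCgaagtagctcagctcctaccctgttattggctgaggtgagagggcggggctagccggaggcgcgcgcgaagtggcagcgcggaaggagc
Uhrf1: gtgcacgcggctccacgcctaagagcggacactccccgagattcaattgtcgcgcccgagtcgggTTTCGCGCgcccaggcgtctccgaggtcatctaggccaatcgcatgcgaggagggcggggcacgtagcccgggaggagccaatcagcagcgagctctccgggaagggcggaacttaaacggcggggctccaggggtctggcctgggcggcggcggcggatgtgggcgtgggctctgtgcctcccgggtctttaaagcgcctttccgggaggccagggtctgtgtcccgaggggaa
The Mcm6 window holds 3 matches, which begin 110, 106 and 47 bases before the start, and the first 2 overlap. The Uhrf1 window holds 1 match, 185 bases before the start. Among members of the replication and repair lists that rose, 62 of 78 had a window, and 22 of their 71 windows (31%) hold such letters. The share was 23% of 74 windows for tested members of the same lists that were not called, 3.76% of the 13504 windows of all tested genes, and 2.26% of all 32851 windows. In 53 of all windows, matches of 2 of the motif kinds searched overlap each other. Such a match is a description of the letters and not of a bound site.

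Replication fork genes moved in the same direction. Of 31 tested members, 23 rose, 8 were not called and all 31 estimates were above 0, with a median of 1.44. Pole, the catalytic subunit of the leading-strand polymerase, was at 4.28, 2.38 and 2.66 CPM at 24 h and 13.6 and 13.5 CPM at 30 h (log2 fold change 2.12 ± 0.34 SE, adjusted p = 0.00019). The histone chaperone gene Asf1b rose from 1.44, 0.55 and 0.705 to 7.32 and 5.69 CPM (log2 fold change 2.82 ± 0.44 SE, adjusted p = 0.00015). Rpa2, of the single-strand binding complex, and Wdhd1, which ties the helicase to the lagging-strand polymerase, rose by 1.59 ± 0.25 and 2.07 ± 0.33. Pcna, the sliding clamp, had a smaller fold change, from 26.9, 23.3 and 21.6 to 67.7 and 45.9 CPM (log2 fold change 1.24 ± 0.23 SE, adjusted p = 0.00093), and was already at 16.7 FPKM on average at 24 h. Dtl, a substrate receptor of a ubiquitin ligase that acts on PCNA-bound proteins and a member of no list, rose from 2.94, 1.28 and 1.63 to 16.3 and 14.2 CPM (log2 fold change 2.95 ± 0.52 SE, adjusted p = 0.00055). Libraries of the 2 times did not overlap for any gene named here. Without 30 h replicate 2, 13 of the 31 members rose and the call of Pcna was lost (adjusted p = 0.087).

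Nucleotide supply was more uneven: 7 of 17 tested members rose and none fell. Rrm2, the regulatory subunit of ribonucleotide reductase that proliferating cells make anew, rose from 3.66, 3.30 and 2.77 to 22.6 and 14.4 CPM (log2 fold change 2.50 ± 0.34 SE, adjusted p = 4.3e-05). Its partner Rrm1 rose from 16.5, 12.5 and 12.0 to 44.98 and 38.0 CPM (log2 fold change 1.60 ± 0.22 SE, adjusted p = 4.3e-05). Tyms, thymidylate synthase, and Dut, which removes dUTP, rose by 0.76 ± 0.15 and 0.96 ± 0.18, from 6.90, 6.78 and 5.42 to 12.9 and 11.9 CPM for Dut. The list's median was 0.40. Without 24 h replicate 3 or either 30 h library, 4 of the members rose, and Tyms was not called without 30 h replicate 2 (adjusted p = 0.057).

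Recombination, Fanconi and checkpoint genes rose in 22 of 29 tested members, with none lower and a median of 1.80. Brca1 rose from 2.78, 1.77 and 2.82 to 18.02 and 11.8 CPM (log2 fold change 2.58 ± 0.33 SE, adjusted p = 1.4e-05) and its partner Bard1 from 0.309, 0.244 and 0.163 to 2.82 and 2.12 CPM (log2 fold change 3.31 ± 0.49 SE, adjusted p = 7.9e-05). The helicase gene Blm rose by 1.97 ± 0.32. Fignl1, an ATPase of recombination repair and a member of no list, rose from 2.37, 0.672 and 1.14 to 13.0 and 9.69 CPM (log2 fold change 2.99 ± 0.47 SE, adjusted p = 0.00017).

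The machinery that copies DNA methylation was split. Uhrf1, which recognises hemimethylated DNA and brings DNMT1 to it, was among the largest rises, from 4.74, 2.81 and 1.52 to 36.5 and 28.0 CPM (log2 fold change 3.41 ± 0.54 SE, adjusted p = 0.0002). Dnmt1, the maintenance methyltransferase, was at 18.4, 11.4 and 14.8 CPM at 24 h and at 25.9 and 26.6 CPM at 30 h and was not called (log2 fold change 0.82 ± 0.27 SE, adjusted p = 0.096), although its libraries did not overlap. It passed the test once the 96 h libraries were left out of the fit (adjusted p = 0.041). It did not pass without 24 h replicate 1, 2 or 3 (0.068, 0.27 and 0.24). The remodeller Hells rose from 2.88, 1.59 and 1.63 to 16.6 and 10.8 CPM (log2 fold change 2.73 ± 0.44 SE, adjusted p = 0.00021). Hmgb2, a chromatin protein, and Suv39h1, a histone H3K9 methyltransferase, rose by 1.66 ± 0.25 and 1.11 ± 0.20. Of the list's 22 tested members, 7 rose, none fell and the median was 0.50. Without 30 h replicate 2, 4 members rose.

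Upstream regulators of the G1/S transition mostly did not pass the test. Of 29 tested genes for E2F factors, G1 cyclins, kinases and inhibitors, 4 rose, none fell and 25 were not called, with a median of 0.26. Over all genes tested, 2.18% rose. In edgeR, 11 of the 29 had an unadjusted p under 0.05, against 14.5% of all genes. At 30 h, 14 of the 29 were higher without overlap, against 17% of all genes. E2f1 rose from 5.10, 4.46 and 3.63 to 20.9 and 13.8 CPM (log2 fold change 1.97 ± 0.30 SE, adjusted p = 0.00012), and the other risen members were Ccne2 (cyclin E2), Rbl1 (the retinoblastoma relative p107) and the CDK4/6 inhibitor gene Cdkn2c. Ccne2 rose from 2.06, 1.83 and 1.90 to 7.48 and 5.57 CPM (log2 fold change 1.75 ± 0.41 SE, adjusted p = 0.009) and was not called without 30 h replicate 2 (adjusted p = 0.13). Cyclin D1 (Ccnd1), which responds to mitogens earlier in G1, was at 110.4, 52.5 and 71.9 CPM at 24 h and 152 and 119.5 CPM at 30 h (log2 fold change 0.79 ± 0.53 SE, adjusted p = 0.54), against a baseline mean of 10.6. Ccne1 was at 3.76, 3.12 and 3.69 and 11.3 and 8.30 CPM (log2 fold change 1.47 ± 0.48 SE, adjusted p = 0.1), with no overlap between the times. A fit on the 5 libraries alone called it (adjusted p = 0.0074). Refits without 24 h replicate 1, 2 or 3 did not (0.19, 0.21 and 0.23). Myc had a log2 fold change of 0.51 ± 0.59 (adjusted p = 0.78). Cdkn1a, which encodes the inhibitor p21, was at 41.1, 29.5 and 108 CPM at 24 h and at 14.7 and 2.36 CPM at 30 h, lower in both 30 h libraries but not called (log2 fold change −2.84 ± 0.94 SE, adjusted p = 0.1), and DESeq2 called it lower (adjusted p = 0.033). The 30 h libraries differed more than 6-fold from each other for this gene. The edgeR refits without 24 h replicate 1, 2 or 3 did not call Cdkn1a (adjusted p = 0.12, 0.085 and 0.40). Among 24 p53 target genes 1 rose, Gtse1, which is also a G2-phase gene, and it was not called without 30 h replicate 2 (adjusted p = 0.072).

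**Figure D2:**
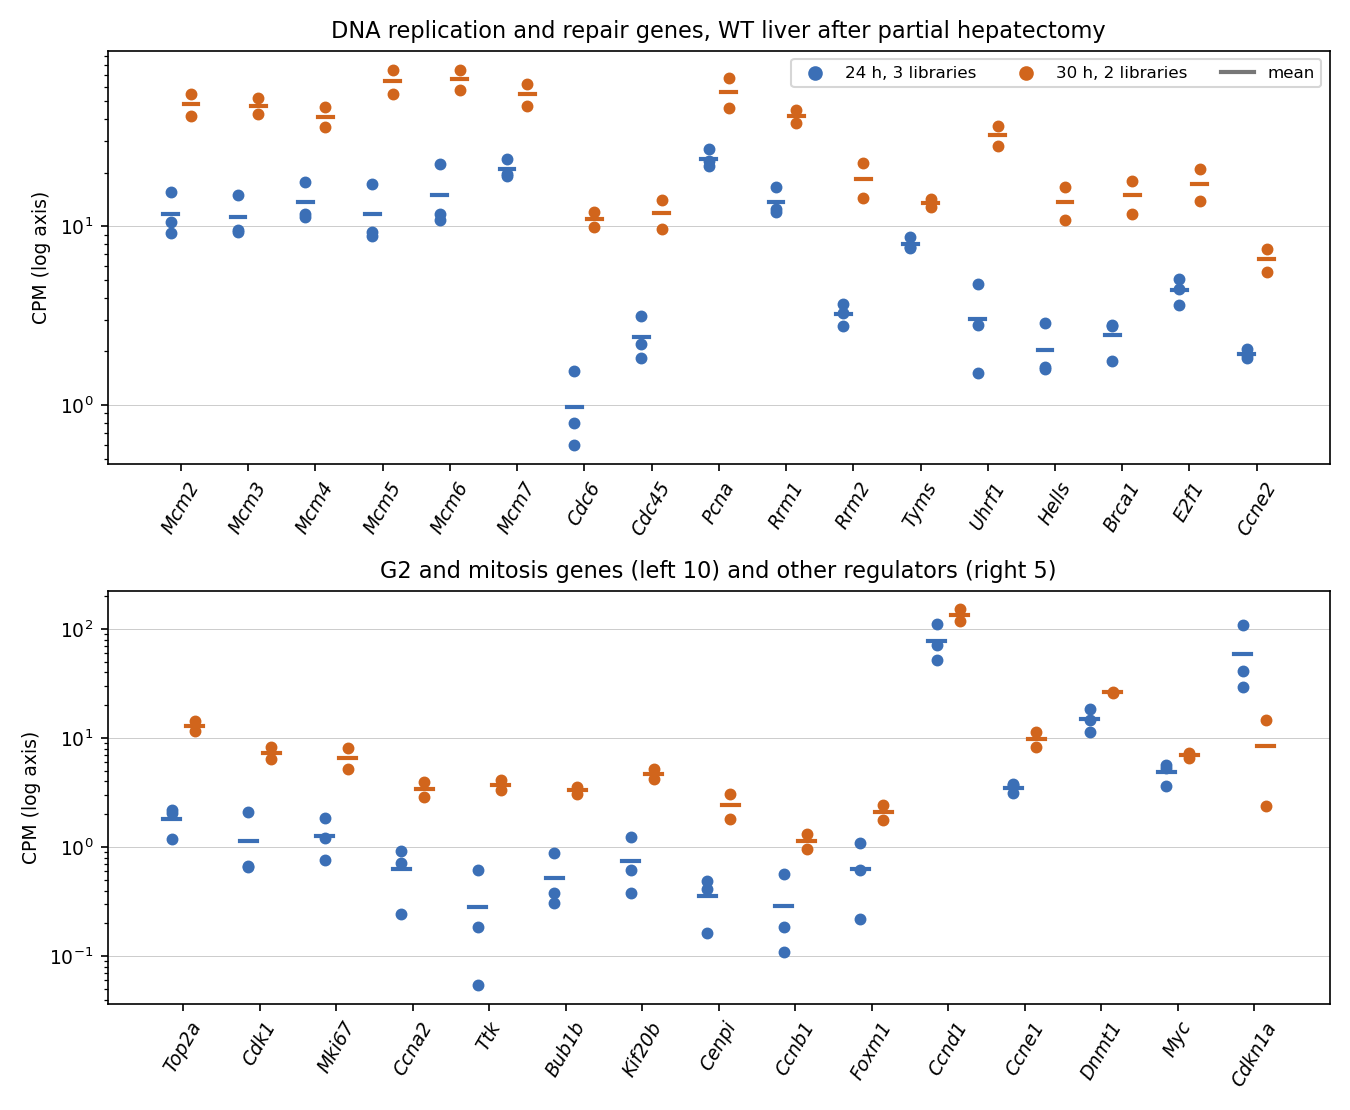
CPM (log axis) of 32 genes in the 3 WT libraries at 24 h (blue) and the 2 at 30 h (orange), with bars at the group means. The 30 h libraries lie above all 24 h libraries for the 17 genes of the upper panel and the 10 left-hand genes of the lower panel, and Cdkn1a, at the right, is lower in both.

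G2 and mitosis genes rose by larger factors from very low levels. Of 57 tested members, 33 rose, none fell and 24 were not called, with a median of 2.22. Top2a, the topoisomerase that untangles replicated chromosomes, was at 2.06, 2.199 and 1.19 CPM at 24 h and 14.4 and 11.6 CPM at 30 h (log2 fold change 2.83 ± 0.47 SE, adjusted p = 0.0003). Cdk1, the mitotic kinase, rose from 2.11, 0.672 and 0.651 to 8.21 and 6.42 CPM (log2 fold change 2.63 ± 0.49 SE, adjusted p = 0.00092). The spindle checkpoint kinase genes Ttk and Bub1b rose from 0.618, 0.183 and 0.0542 to 4.10 and 3.33 CPM (log2 fold change 3.62 ± 0.57 SE, adjusted p = 0.00017) and from 0.876, 0.305 and 0.38 to 3.06 and 3.57 CPM (log2 fold change 2.63 ± 0.39 SE, adjusted p = 7.7e-05). The 30 h libraries were above all 24 h libraries for each of these 4 genes. Cenpi, of the kinetochore, and Kif20b, a kinesin, rose by 2.75 ± 0.41 and 2.64 ± 0.41. Cyclin A2 (Ccna2) rose from 0.721, 0.244 and 0.922 to 3.94 and 2.91 CPM (log2 fold change 2.39 ± 0.53 SE, adjusted p = 0.0053), and the proliferation marker Mki67 from 1.85, 1.22 and 0.759 to 8.05 and 5.21 CPM (log2 fold change 2.35 ± 0.57 SE, adjusted p = 0.015). Cyclin B1 (Ccnb1) was at 0.567, 0.183 and 0.108 CPM at 24 h and 0.966 and 1.33 CPM at 30 h and was not called (log2 fold change 1.96 ± 1.03 SE, adjusted p = 0.4). Foxm1, the factor that drives mitotic genes, was at 1.08, 0.611 and 0.217 and 2.41 and 1.76 CPM and was not called (log2 fold change 1.67 ± 0.54 SE, adjusted p = 0.092). It was called by DESeq2 (adjusted p = 0.026). In the edgeR refits without 24 h replicate 1, 2 or 3 its adjusted p was 0.044, 0.17 and 0.37. Without 30 h replicate 2, 15 members of the list rose and the calls of Ccna2 and Mki67 were lost (adjusted p = 0.085 and 0.17), and Mki67 was also lost without 24 h replicate 3 (0.11). On log2(FPKM + 1) values, which compress changes at such low levels, limma called 12 members higher.

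The promoter of Ttk is shown for the elements of mitotic genes. Its window is at chr9:83834439-83834738 on the plus strand, and capitals mark CCAAT, 65 and 28 bases before the start, and the reverse complement of the CHR letters TTTGAA, 7 bases after it.
Ttk: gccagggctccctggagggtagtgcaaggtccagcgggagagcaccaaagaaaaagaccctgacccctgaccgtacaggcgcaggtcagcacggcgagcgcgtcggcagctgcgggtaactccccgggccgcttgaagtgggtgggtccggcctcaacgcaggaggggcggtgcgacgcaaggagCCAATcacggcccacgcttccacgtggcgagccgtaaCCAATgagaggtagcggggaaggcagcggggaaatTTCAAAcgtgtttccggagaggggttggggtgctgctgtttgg
Of the 33 risen members, 27 had a window, and 19 of their 29 windows (65.5%) hold the CHR letters and 22 (75.9%) hold CCAAT on either strand. For the tested members that were not called, the shares were 71.4% and 85.7% of 21 windows. Over the windows of all tested genes they were 12.6% and 37.8%, and over all windows 17.9% and 37.4%.

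The WT time course shows how far each group had come by 30 h. Relative to its highest mean among the WT groups from baseline to 4 weeks (96 h not included), the median licensing gene stood at 17.9% at 24 h and 61.7% at 30 h, the median fork gene at 18.04% and 43.0%, and the median recombination gene at 10.5% and 41.5%. The median G2 and mitosis gene stood at 1.27% and 6.93%. Cdc6 at 30 h (12.1 and 9.87 CPM) lay inside the range of the 40 h libraries (5.16 to 19.8 CPM), with means of 10.97 and 13.4 CPM. Mcm6 was higher in all 3 libraries at 40 h (102 to 212 CPM) than in either at 30 h. Ccna2 reached 50.3 to 65.2 CPM at 40 h and 46.7 and 81.9 CPM at 48 h, and Ccnb1 41.8 to 54.8 and 65.5 and 136 CPM, from 0.966 and 1.33 CPM at 30 h. Among the 307 risen genes, the mean was highest at 30 h for 61, at 40 h for 194 and at 48 h for 52 of the 4 times from 24 h to 48 h, where 24 h could not be the highest by the choice of genes. Of the 129 fallen genes, 101 had their lowest mean at 30 h, 17 at 40 h and 11 at 48 h. Here 24 h could not be the lowest by the choice of genes. The same 30 h libraries served to choose the genes and to rank the times. That favours 30 h in both counts, so they do not test for a peak or a trough at 30 h.

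**Figure D3:**
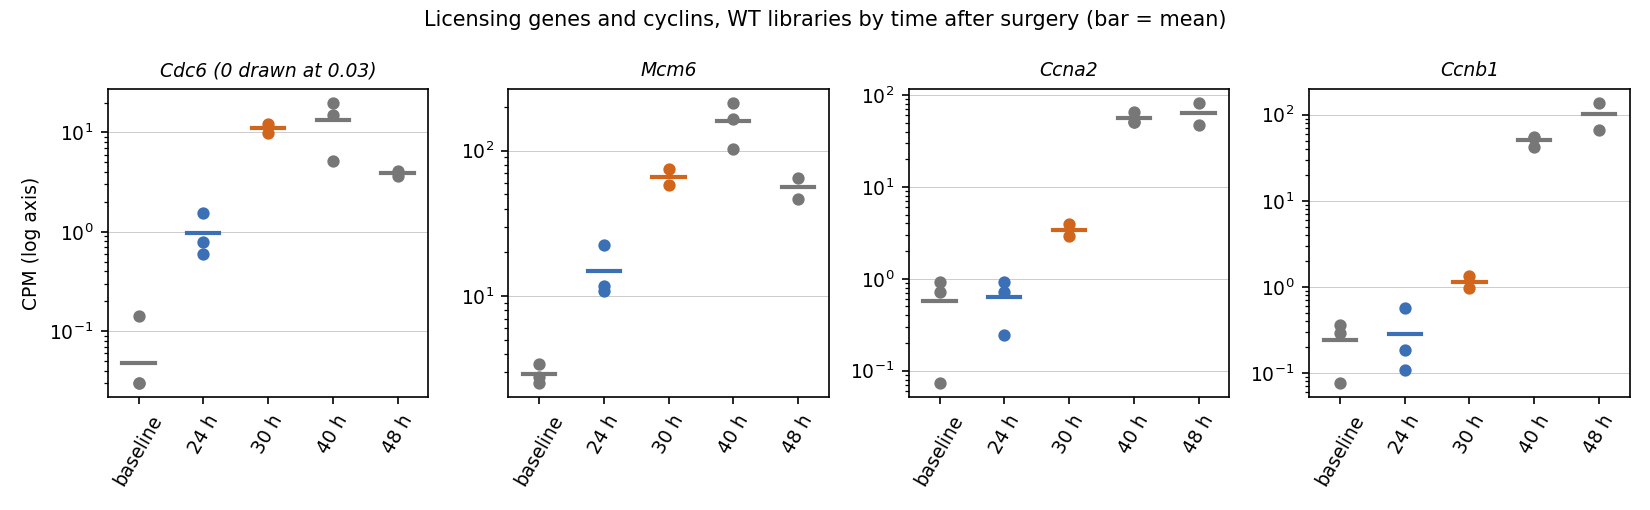
CPM (log axis) of Cdc6, Mcm6, Ccna2 and Ccnb1 in every WT library from baseline to 48 h, with bars at the group means, 24 h in blue and 30 h in orange. Cdc6 and Mcm6 have risen by 30 h to within the range of 40 h and 48 h or near it, while Ccna2 and Ccnb1 at 30 h remain more than 10-fold below their 40 h means.

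Clock genes changed in both directions. Over the clock and clock output lists together, 39 genes were tested, 11 rose and 6 fell, against 2.18% and 0.916% of all genes. A fit on the 5 libraries alone called 13 of them higher and 11 lower. Of all 12688 genes tested in that fit, 302 were called higher and 189 lower. Dbp, an output activator, was at 0.824, 1.41 and 0.651 CPM at 24 h and at 33.5 and 38.7 CPM at 30 h (log2 fold change 5.24 ± 1.13 SE, adjusted p = 0.0047). Per3, a repressor of the PER family, rose from 0.618, 2.50 and 0.705 to 20.04 and 20.1 CPM (log2 fold change 4.01 ± 0.67 SE, adjusted p = 0.00035). Tef, a relative of Dbp, rose from 32.2, 37.2 and 30.0 to 149 and 137 CPM (log2 fold change 2.11 ± 0.42 SE, adjusted p = 0.002), and the repressor gene Bhlhe41 from 0.154, 0.122 and 0.0542 to 2.33 and 2.79 CPM (log2 fold change 4.45 ± 0.88 SE, adjusted p = 0.0016). Per2 rose from 7.73, 7.14 and 7.05 to 18.9 and 25.1 CPM (log2 fold change 1.59 ± 0.35 SE, adjusted p = 0.0059), and was not called without 30 h replicate 3 (adjusted p = 0.15). The remaining risen clock genes, Ciart and Cry2, both repressors, were named after their values were seen. Ciart rose by 5.01 ± 1.14, a call lost without 24 h replicate 3 or 30 h replicate 2 (adjusted p = 0.059 and 0.086). Cry2 rose by 0.68 ± 0.19, a call lost whichever of the 5 libraries was left out (0.056 to 0.24).

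The activators fell. Arntl (chr7:113207465-113314126, where Dbp is at chr7:45705088-45710203) was at 27.4, 25.2 and 23.3 CPM at 24 h and at 1.77 and 1.70 CPM at 30 h (log2 fold change −3.86 ± 1.01 SE, adjusted p = 0.029), a separation far wider than the spread within either time. Npas2 was at 10.2, 6.60 and 11.7 CPM at 24 h and had 2 counts in all at 30 h against 521 at 24 h, a ratio of 139 with a counting interval of 38.3 to 1151 (exact, 95%, counting error only) and an adjusted p of 0.0021. Clock, named after its values were seen, fell from 77.3, 58.2 and 85.2 to 37.6 and 32.5 CPM (log2 fold change −1.07 ± 0.28 SE, adjusted p = 0.029). None of the 6 falls of the clock lists was called with 1 library left at 30 h. Without 30 h replicate 2 and replicate 3 the adjusted p was 0.18 and 0.27 for Arntl, 0.055 and 0.094 for Npas2, and 0.12 and 0.29 for Clock. Arntl and Clock were also lost without 24 h replicate 1 (0.054 and 0.070) or 24 h replicate 3 (0.054 and 0.13). Nr1d1, which encodes the repressor REV-ERBα, was at 30.0, 23.4 and 14.1 CPM and 43.0 and 56.0 CPM (log2 fold change 1.14 ± 0.79 SE, adjusted p = 0.56), and Per1, a PER gene that also responds to stress hormones, at 13.4, 6.41 and 33.9 and 37.1 and 13.6 CPM (log2 fold change 0.49 ± 0.63 SE, adjusted p = 0.81). The libraries overlapped for Per1, and its estimate was −0.41 without 30 h replicate 2.

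Time since surgery and hour of day cannot be told apart in this step. Libraries of 1 group did not always hold the same clock state: at baseline Dbp was at 62.1, 63.7 and 2.14 CPM and Arntl at 1.68, 2.43 and 24.5 CPM, and at 40 h Dbp was at 1.53, 0.768 and 9.44 CPM and Arntl at 16.3, 26.8 and 4.79 CPM. In both cases 1 library of the 3, replicate 3, had the opposite pattern to the others. The 24 h and the 30 h libraries were each close to one another for both genes. The spread behind the p-values and SE of the step was estimated over all 16 groups. The differing baseline and 40 h libraries therefore enter it for these genes. The fit on the 5 libraries alone, without those groups, called 13 genes of the clock lists higher and 11 lower, against 11 and 6. At 48 h, Dbp (0.247 and 0.895 CPM) and Arntl (27.7 and 21.3 CPM) were near their 24 h levels.

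**Figure D4:**
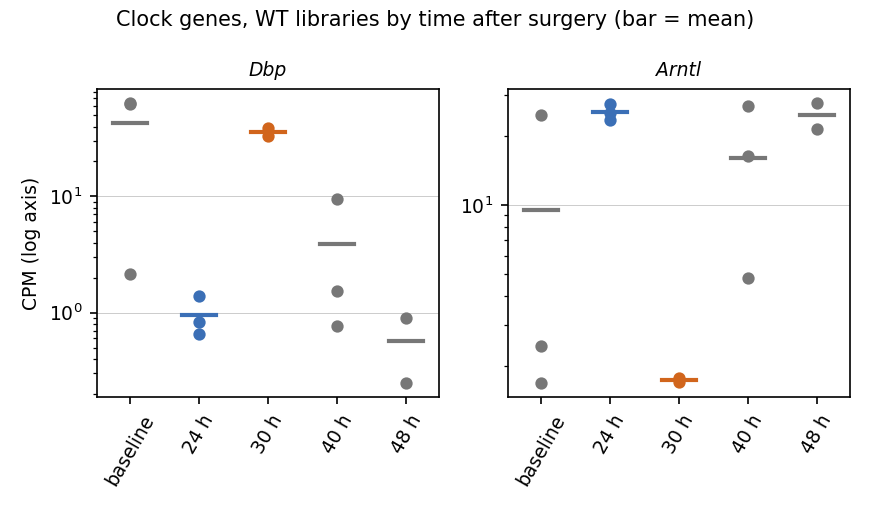
CPM (log axis) of Dbp and Arntl in every WT library from baseline to 48 h, with bars at the group means, 24 h in blue and 30 h in orange. Dbp is high and Arntl low in both 30 h libraries, the reverse of all 24 h libraries, and at baseline 1 of the 3 libraries differs from the other 2.

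The promoter of Ciart is shown because its window holds 3 E-boxes, CACGTG, the letters that CLOCK and BMAL1 bind. The window is at chr3:95882179-95882478 on the minus strand, and capitals mark the E-boxes, which begin 116, 58 and 44 bases before the start.
Ciart: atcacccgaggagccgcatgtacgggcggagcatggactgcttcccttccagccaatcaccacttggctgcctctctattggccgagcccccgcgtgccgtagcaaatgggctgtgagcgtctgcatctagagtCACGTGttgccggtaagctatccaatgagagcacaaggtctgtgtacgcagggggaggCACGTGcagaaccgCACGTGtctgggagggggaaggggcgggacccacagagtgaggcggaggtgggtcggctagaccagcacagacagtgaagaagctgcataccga
Of the 11 windows of risen clock-list genes (9 of 11 genes had one), 4 hold an E-box (36.4%). None of the 11 windows of the 6 fallen genes does. The share was 9.64% over the windows of all tested genes and 7.15% over all windows.

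Among genes driven by the clock in liver, Upp2, uridine phosphorylase, rose from 10.4, 8.73 and 4.77 to 136 and 57.8 CPM (log2 fold change 3.60 ± 0.64 SE, adjusted p = 0.0007). Cyp2a5, a cytochrome P450 that is a target of DBP and its relatives, rose from 48.6, 33.1 and 17.6 to 287 and 206 CPM (log2 fold change 2.90 ± 0.60 SE, adjusted p = 0.0034), still below its baseline mean of 900.4 CPM. It was the 1 P450 gene of 25 called, a share near the 3.09% of all genes called. The other risen outputs, Wee1 and Usp2, were named after their values were seen. Wee1, an inhibitory kinase of CDK1 that is also in the checkpoint list, was at 2.11, 2.63 and 2.06 and 10.5 and 11.5 CPM (log2 fold change 2.28 ± 0.57 SE, adjusted p = 0.017). Leaving out 24 h replicate 1, 24 h replicate 3, 30 h replicate 2 or 30 h replicate 3 ended its call (adjusted p = 0.068, 0.090, 0.072 and 0.14). Usp2, a deubiquitinase gene, rose by 2.61 ± 0.70, and its call was lost without any 1 of the 5 libraries (0.084 to 0.16). The fallen outputs were Insig2, which retains the sterol sensor SCAP in the endoplasmic reticulum, Tubb2a, a beta tubulin, and Leo1, of a transcription elongation complex. Insig2 fell from 486, 361 and 471 to 127 and 90.1 CPM (log2 fold change −2.02 ± 0.47 SE, adjusted p = 0.0092) and Tubb2a from 444, 322 and 436 to 107 and 70.0 CPM (log2 fold change −2.18 ± 0.52 SE, adjusted p = 0.013). Both calls were lost without 30 h replicate 2 (adjusted p = 0.064 and 0.072) or 30 h replicate 3 (0.21 and 0.25). Leo1, named after its values were seen, was at 19.5, 18.9 and 20.4 and 9.41 and 10.4 CPM, and its call was lost without 24 h replicate 1, 24 h replicate 3, 30 h replicate 2 or 30 h replicate 3 (0.059, 0.096, 0.20 and 0.17).

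Among fallen genes whose log2 CPM averaged 1 or more over the 5 libraries, the largest falls outside these lists were of genes with varied roles. Ndrg1, a gene induced by hypoxia and stress, fell from 52.8, 37.7 and 68.0 to 5.96 and 4.24 CPM (log2 fold change −3.38 ± 0.54 SE, adjusted p = 0.0002), below its baseline mean of 7.17 CPM. Rnf144a, a ubiquitin ligase gene, fell from 15.3, 8.31 and 11.7 to 1.29 and 1.64 CPM (log2 fold change −2.99 ± 0.48 SE, adjusted p = 0.00017). Slc30a10, a manganese exporter, fell from 84.1, 74.8 and 77.4 to 12.6 and 12.3 CPM (log2 fold change −2.66 ± 0.43 SE, adjusted p = 0.00022). For these 3 genes the calls held whichever of the 5 libraries was left out. Chka, the choline kinase that starts phosphatidylcholine synthesis, fell from 64.8, 127 and 108 to 21.8 and 10.5 CPM (log2 fold change −2.64 ± 0.55 SE, adjusted p = 0.0031). Clpx, the chaperone of a mitochondrial protease, fell from 333, 300.3 and 292 to 80.1 and 51.9 CPM (log2 fold change −2.23 ± 0.45 SE, adjusted p = 0.0025). Spon2, a secreted matrix protein gene, Pdgfc, a growth factor, and Wdfy1 fell by 2.79 ± 0.53, 2.02 ± 0.36 and 2.16 ± 0.62 on the log2 scale. Without 30 h replicate 3 the calls of Chka (adjusted p = 0.15), Clpx (0.12) and Spon2 (0.084) were lost, and without 30 h replicate 2 that of Pdgfc (0.053). That of Wdfy1 was lost without any 1 of the 5 libraries (0.054 to 0.35).

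Hepatocyte metabolism moved in part. In the urea cycle and amino acid catabolism list, 6 of 32 tested members rose and 1 fell, against 2.18% and 0.916% of all genes, with a median of 0.39. The urea cycle enzyme Ass1 was at 1349, 1515 and 763 CPM at 24 h and 2380 and 2569 CPM at 30 h (log2 fold change 1.03 ± 0.26 SE, adjusted p = 0.015). Oat, ornithine aminotransferase, rose by 0.84 ± 0.22. Among the other risen members, those named after their values were seen were Cps1, which starts the urea cycle (0.93 ± 0.26), Asl, its lyase (1.45 ± 0.41), and Gpt, alanine aminotransferase (0.71 ± 0.19). Gldc, of the glycine cleavage system, fell from 204, 193 and 205 to 81.9 and 76.7 CPM (log2 fold change −1.34 ± 0.26 SE, adjusted p = 0.0013), a call that held in each of the 5 refits that left out 1 library. The rises did not hold so well: 3 members rose without 24 h replicate 1, 5 without 24 h replicate 2, none without 24 h replicate 3, 1 without 30 h replicate 2 and none without 30 h replicate 3. For Ass1 the adjusted p was 0.16, 0.073 and 0.15 without 24 h replicate 3, 30 h replicate 2 and 30 h replicate 3.

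For lipid and carbohydrate genes, the share of all genes called, 3.09%, stands beside the counts. Of 30 tested genes of fatty acid and triglyceride synthesis, 2 rose, the desaturase genes Fads1 and Fads2, and 1 fell, the fatty acid uptake receptor Cd36. Fads2 rose from 199, 312 and 262 to 657 and 474 CPM (log2 fold change 1.13 ± 0.27 SE, adjusted p = 0.011), a call lost without 24 h replicate 1 (adjusted p = 0.081) or 30 h replicate 2 (0.21). Fads1 rose by 0.78 ± 0.22, lost without 24 h replicate 1, 24 h replicate 3, 30 h replicate 2 or 30 h replicate 3 (0.16, 0.18, 0.34 and 0.080). Cd36 fell from 126, 77.2 and 169 to 40.6 and 32.7 CPM (log2 fold change −1.76 ± 0.49 SE, adjusted p = 0.042), lost without the same 4 libraries (0.078, 0.19, 0.17 and 0.35). Ehhadh, a peroxisomal beta-oxidation enzyme, was the 1 fall among 32 oxidation genes, from 1210, 929 and 1958 to 422 and 298 CPM (log2 fold change −1.92 ± 0.42 SE, adjusted p = 0.0051), and it was not called without 30 h replicate 3 (0.17). Gys2, liver glycogen synthase, was the 1 rise among 32 glucose metabolism genes (as for Ehhadh, a share near that of all genes), from 80.7, 81.0 and 87.0 to 225 and 221 CPM (log2 fold change 1.43 ± 0.31 SE, adjusted p = 0.0053). Its 5 libraries were in 2 tight groups, and it missed the threshold with either 30 h library alone (0.055 and 0.057). Among 36 interferon-stimulated genes Irgm1 fell by 0.97 ± 0.25 (adjusted p = 0.024), a call lost without 24 h replicate 3, 30 h replicate 2 or 30 h replicate 3 (0.11, 0.070 and 0.35).

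Cholesterol synthesis is a list with no call by edgeR in which estimates lay on 1 side. Of 25 estimates, 24 were above 0, with a median of 0.52 against 0.01 over all genes. In edgeR, 10 of the 25 had an unadjusted p under 0.05, against 14.5% of all genes, and DESeq2 called none. Relative to the 24 h mean, the list's mean log2 CPM was −0.34, 0.35 and −0.01 at 24 h and 0.56 and 0.56 at 30 h. The list as a whole thus differed between the 24 h libraries, so its members are not separate evidence of the step. Mvk, mevalonate kinase, was at 24.2, 41.4 and 29.7 CPM at 24 h and 62.4 and 67.4 CPM at 30 h (log2 fold change 1.03 ± 0.34 SE, adjusted p = 0.099), and Sqle, squalene epoxidase, at 120.5, 194 and 177 and 288 and 277 CPM (log2 fold change 0.79 ± 0.30 SE, adjusted p = 0.17). The 30 h libraries were above all 24 h libraries for both genes. Mvk passed the test in a fit without the 96 h libraries (adjusted p = 0.024) or on the 5 libraries alone (0.042). It did not pass without 24 h replicate 1, 2 or 3 (0.31, 0.066 and 0.28). Cyp7a1, the rate-limiting enzyme of bile acid synthesis, was at 6.08, 19.9 and 12.4 CPM at 24 h and 101 and 64.5 CPM at 30 h, with no overlap and no call (log2 fold change 2.70 ± 0.93 SE, adjusted p = 0.12).

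In all, 12 pathway lists held no called member: cholesterol synthesis, bile acid synthesis and transport, immediate early genes, growth factors and receptors, glucocorticoid response, hepatocyte factors with plasma proteins, acute phase, the unfolded protein response, heat shock, ribosome biogenesis, and male-biased and female-biased liver genes. Of their 299 tested genes, edgeR called 0, 39 (13%) had an unadjusted p under 0.05 against 14.5% of all genes, and DESeq2 called 1 higher and 2 lower. Hnf4a, the master factor of hepatocytes, was at 758, 662 and 737 CPM at 24 h and 608 and 443 CPM at 30 h (log2 fold change −0.45 ± 0.18 SE, adjusted p = 0.21), and albumin (Alb) had a log2 fold change of 0.08 ± 0.24 SE (adjusted p = 0.93).

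Of 8 lists of markers of other cell types, 104 genes were tested. EdgeR called 0 of them, 9 (8.65%) had an unadjusted p under 0.05, DESeq2 called 1 lower and limma on FPKM called 1 (pseudocount 1) or 0 (pseudocount 0.1). Cholangiocyte markers were lower in sum, 88.6 to 125 CPM at 24 h and 56.0 to 57.2 CPM at 30 h, with 0 of 12 called and 6 lower without overlap, against 16.4% of all genes lower without overlap. Spp1, the most abundant of them and also made by other cells, was at 43.3, 75.0 and 77.4 and 32.4 and 21.4 CPM (log2 fold change −1.28 ± 0.41 SE, adjusted p = 0.086). The summed ranges overlapped between the times for Kupffer cells (520 to 670 and 352 to 700 CPM), endothelial cells (382 to 460 and 394 to 399), stellate cells (383 to 501 and 412 to 485), monocytes and neutrophils (30.0 to 42.4 and 25.6 to 47.6), lymphocytes (4.18 to 18.5 and 5.39 to 13.5), erythroid cells (140.4 to 243 and 93.4 to 173), and pancreas and gut (81.4 to 117 and 105 to 107). Of the markers in the table, Camp (neutrophils), Epb42 (erythroid) and Muc2 (gut) were at 0 in all 5 libraries. The part of these cells in the rises and falls was not tested.

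The same step was measured in KO liver, in other libraries. There, 884 genes rose (6.27%) and 389 fell (2.76%) from 24 h to 30 h, 9.03% of the genes in all. These 1273 calls became 783 without KO 30 h replicate 3 and 828 without KO 24 h replicate 1. Of the 307 WT rises, 265 also rose in KO (86.3% of the WT rises and 30.0% of the KO rises), and of the 129 WT falls 65 also fell (50.4% and 16.7%). No gene was called in opposite directions. The KO estimate was above 0 for all 307 WT rises and larger than the WT estimate for 222 of them, while 121 of the 129 WT falls were larger in WT, all of them genes chosen by their WT change. The difference between the steps itself was called for no gene by edgeR (smallest adjusted p 0.22), with 776 genes (5.51%) at an unadjusted p under 0.05. DESeq2 called 8 genes (Mgp, Mfap4, Myh11, Stmn1, Prc1, Cenpw, Mthfd2 and Eri1). Limma on FPKM called 4 (Rrm2, Pbk, Cenpi and Pclaf, pseudocount 1) or 1 (Ska1, pseudocount 0.1). All of these had the larger rise or smaller fall in KO.

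In the cell cycle lists the KO step was estimated as the larger for 190 of 207 genes, against 50.9% of all genes. Of the 207, 74 had an unadjusted p under 0.05 for the difference, against 5.51% of all genes. In KO, 165 of the 207 rose, against 6.27% of all genes. The median of the G2 and mitosis list was 3.63 in KO and 2.22 in WT. Rrm2, for example, rose by 4.32 ± 0.31 in KO, a difference to WT of −1.82 ± 0.45 with an adjusted p of 0.33 in edgeR and of 0.046 in limma on log2(FPKM + 1). Ccnb1 and Foxm1, not called in WT, rose in KO by 4.61 ± 0.87 and 4.46 ± 0.48. The differences to WT for these genes, −2.65 ± 1.57 and −2.79 ± 0.78, did not pass the test (unadjusted p = 0.1 and 0.0012). Dbp rose by 3.81 ± 1.02 and Arntl fell by 2.90 ± 0.79 in KO. The differences to WT of 1.43 ± 1.60 and −0.97 ± 1.26 were smaller than 2 of their standard errors. Of 36 interferon-stimulated genes, 21 fell in KO, against 2.76% of all genes, and 1 fell in WT, against 0.916%. The WT step minus the KO step was below 0 for 3 of the 36, against 50.9% of all genes. For 11 the difference had an unadjusted p under 0.05, against 5.51%.

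**Figure D5:**
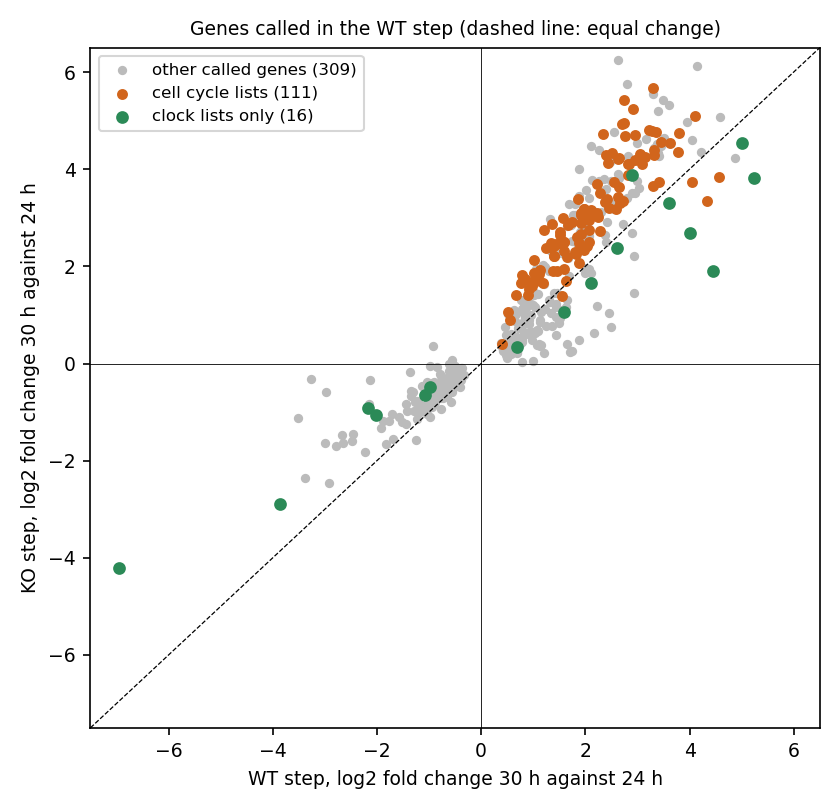
Log2 fold change at 30 h against 24 h in WT (x axis) and in KO (y axis) for the 436 genes called in WT, with the cell cycle lists in orange (111 genes), genes of the clock lists alone in green (16) and other genes in grey (309). Most orange points lie above the dashed line of equal change, and nearly all points lie in the 2 quadrants where the genotypes move in the same direction.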

How the data were processed

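Poly(A) RNA of whole liver was sequenced as 100 bp paired reads. Per the submitters' processing notes, FastQC 0.11.5, Trimmomatic, TopHat2 2.1.0, Cufflinks 2.2.1, HTSeq and DESeq2 were used, with the mm10 build, and the sources used here give no parameters, annotation or strand setting. The authors deposited raw counts per gene, used for all main results, and FPKM values, which the authors had scaled by transcript length and depth and which served as an alternative. Whether near-identical or overlapping genes share reads is therefore unknown.

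Counts of all 45 libraries were fitted with edgeR 4.0.16 in R 4.3.3: filterByExpr (14090 of 19966 genes kept), TMM, 16 group means and a robust quasi-likelihood test. The 96 h libraries, whose labels are in doubt, enter through the shared spread and the gene filter (14009 genes tested without them). P-values were Benjamini-Hochberg adjusted over all tested genes. Each SE given with an edgeR log2 fold change is its absolute value divided by the square root of the test's F statistic. It was thus derived from the test and is an approximate standard error. The pipeline was tested on simulated data. Replicates differed by more than counting noise, so none was counted as a duplicate.

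Members and gene lists were chosen with earlier results of these data known. Named genes are the 12 largest rises and falls among called genes averaging 1 or more on the log2 CPM scale, with no overlap and a regular symbol, the 4 called members of each list with the smallest p (or 2 where fewer than 2 were called), 33 fixed genes, and others said to be named after their values were seen, though some of these genes are not reported here. DESeq2 1.42.0, limma 3.58.1 on log2(FPKM + 1) or log2(FPKM + 0.1), other filters, scalings and sample sets, and each library left out were alternatives. Motifs were matched as exact letters in RefSeq promoter windows, a table that holds 10554 of the tested genes.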

Additional observations from a re-analysis of the deposited data

How the results depend on the processing

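With each of the 5 libraries left out in turn, 196 to 383 genes were called in the WT step, with 251 without 24 h replicate 3, 216 without 30 h replicate 2 and 196 (177 higher and 19 lower) without 30 h replicate 3, against 436 with all. The KO step gave 783 to 1233 calls, with 828 without KO 24 h replicate 1 and 783 without KO 30 h replicate 3, and the difference between the steps 0 to 1. The call in the last case was Mfap4, without KO 30 h replicate 3. The difference was called for 8 genes by DESeq2, for 4 by limma on FPKM with a pseudocount of 1 and for 1 with 0.1, and for none under the other settings. All other settings kept the WT count within 1.5 times, from 292 (limma on log2(FPKM + 1)) to 594 (DESeq2), and the KO count from 1006 to 1461. With library totals in place of TMM, 83.1% of the KO calls were higher against 69.4%. Of the 95 named genes that were called, 43 held in every refit without 1 library. Over the refits without 1 library the estimate of Alb ran from −0.15 to 0.28 and that of Per1 from −0.41 to 1.34, both negative without 30 h replicate 2, the reverse of their values with all libraries. The cause was not tested. Between 24 h and 30 h libraries with the same replicate number, r was 0.01 for replicate 2 and −0.03 for replicate 3. Each r for 1 library at 30 h is that of the other with the sign reversed, because only 2 libraries form that group. These values therefore cannot decide whether replicate numbers mark shared samples. With the replicate block the WT step had 396 calls, 382 of them shared, the KO step 1179 and the difference 0. With 2 libraries at 30 h, changes in genes below a few CPM are measured imprecisely.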

Other observations

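The 6 amino acid carrier genes named here rose at 30 h in WT liver. They were picked from the risen genes after their values were seen, and how many carriers were tested was not counted, so they describe no group. Slc7a2, a carrier of cationic amino acids, rose from 323, 216 and 208 CPM at 24 h to 607 and 745 CPM at 30 h (log2 fold change 1.44 ± 0.28 SE, adjusted p = 0.0016, edgeR). Slc38a3 and Slc38a4, sodium-coupled neutral amino acid transporters, rose by 1.14 ± 0.25 and 0.83 ± 0.20. Slc1a5, a glutamine carrier, Slc1a2, a glutamate carrier, and Slc43a1, a carrier of branched-chain amino acids, rose by 1.43 ± 0.33, 0.92 ± 0.20 and 1.32 ± 0.31. All 6 also rose in the KO step. Each lost its call in at least 1 of the 5 refits that left out 1 library, with highest adjusted p of 0.059 for Slc7a2, 0.097 for Slc38a3, 0.095 for Slc38a4, 0.28 for Slc1a5, 0.072 for Slc1a2 and 0.12 for Slc43a1. Slc16a1, a carrier of lactate and ketone bodies, fell from 176, 206 and 256 to 88.0 and 86.2 CPM (log2 fold change −1.29 ± 0.18 SE, adjusted p = 4.6e-05), a call that held in all 5 refits.

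Among folate and glycine genes picked in the same way, Mthfd1l, a mitochondrial enzyme of formate production, rose from 1.44, 1.47 and 0.325 to 3.38 and 5.21 CPM (log2 fold change 2.00 ± 0.49 SE, adjusted p = 0.014) and its cytosolic relative Mthfd1 by 0.40 ± 0.11. Fpgs, which retains folate in the cell, and Amt, of the glycine cleavage system like Gldc, fell by 0.81 ± 0.22 and 0.69 ± 0.19. Crot, a peroxisomal carnitine acyltransferase, Pxmp4, a peroxisomal membrane protein, and the carrier gene Slc25a17 fell by 1.17 ± 0.30, 1.17 ± 0.24 and 0.55 ± 0.15. In KO, Slc25a17 had an estimate of 0.08 ± 0.13, and edgeR called the difference between the WT and KO steps for no gene. These genes too were chosen by their change and stand for no group. For each of them leaving out 1 library ended the call at least once, with highest adjusted p between 0.15 (Pxmp4) and 0.44 (Crot).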
